A study of Mus musculus with 9 samples.

Results

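The 39 genes described here encode the machinery that copies DNA in S phase and the enzymes that supply and clean its deoxynucleotides. They were listed by name for these roles, with earlier results of these data known, and the rule itself uses no measured value. All 39 were found among the 22609 genes of the count files and all passed the filter on low counts that left 13366 genes for testing. They comprised 2 origin licensing factors, 6 subunits of the MCM2-7 helicase, 4 factors that activate it, 3 subunits of the single-strand binding protein RPA, 6 genes of the sliding clamp and its loader, 8 genes of primase and the polymerases, 2 of Okazaki fragment maturation, 6 of deoxynucleotide supply and uracil exclusion, and 2 of chromatin and histone message.

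The libraries were made from tumors of 4T1, a mouse mammary carcinoma line used as a model of TNBC, grown in mammary fat pads of BALB/c hosts. The hosts had been on their diets for 6 weeks when the cells were injected and stayed on them until euthanasia. The LFD group (n = 3) ate a diet with 10% of its kcal as fat and received the vehicle, 0.3% hydroxy propyl cellulose. The HFD group (n = 3) ate 60% of its kcal as fat and received the same vehicle. The HFD + EC359 group (n = 3) ate the HFD and received EC359, an inhibitor of the leukemia inhibitory factor receptor (LIFR), at 5 mg/kg intraperitoneally on 5 days per week. The host's own stromal and immune cells are part of each tumor sample. The labels gave no age and did not say which mouse each library came from or whether tumors were pooled. Each n therefore counts libraries and not mice, and the p-values measure the spread between these libraries.

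Library totals ran from 5085357 to 9751201 counts and differed between the groups, with 5085357 to 6509130 in the LFD group, 7314704 to 7922852 in the HFD group, and 8043649 to 9751201 in the HFD + EC359 group. The libraries also differed by group in base composition. The level of genes with at most 45.8% GC in their exons, minus that of genes with at least 55.4%, was -0.54 to -0.32 (log2, relative to the mean of all libraries) in the LFD libraries, 0.10 to 0.16 in the HFD libraries, and 0.25 to 0.30 in the HFD + EC359 libraries. LFD replicate 1 stood apart: it held the -0.54, where the other LFD libraries had -0.36 and -0.32, and the mean chi-square per gene between it and them was 2.48 and 3.02, against 1.36 to 1.57 for all other pairs within a group. Without it, 17 of the 39 genes fell and 4 rose in HFD against LFD, and 18 fell in HFD + EC359 against HFD. Of all 13366 tested genes, 3216 then fell and 3153 rose in HFD against LFD, and 2200 fell in HFD + EC359 against HFD. Counts of changed genes among the 39 and in the other pathway lists are therefore also given after removal of each library's trend with GC content and gene length. Levels are CPM, counts scaled to an equal library total with TMM factors, and at these depths 3 counts correspond to 0.308 to 0.59 CPM. The 39 genes had from 51 counts (Rfc4) to 1435 counts (Mcm7) in a library, and no other gene on the same strand shared their exonic bases.

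Replication of DNA begins when Cdc6 and Cdt1 load the ring-shaped MCM2-7 helicase onto origins, and when the GINS complex and Mcm10 help to turn it into an active helicase in S phase. RPA coats the unwound strands, primase and polymerase alpha lay down primers, and polymerases delta and epsilon extend them on the PCNA clamp that replication factor C loads. Ribonucleotide reductase, thymidylate synthase, and thymidine kinase supply the deoxynucleotides, and many of these genes are classical targets of the E2F transcription factors in cycling cells.

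Start-site sequences of these genes are shown first, since a shared E2F-type element is what many of them are known for. RefSeq promoters of 300 bases (250 before and 50 after the start site, build GRCm38.p6) were at hand for 33 of the 39 genes, and Mcm4, Gins1, Gins2, Rfc2, Pole, and Prim2 had no entry. The letters TTTCGCGC, TTTGGCGC, TTTCCCGC, or TTTGCCGC were searched on both strands as the E2F-type motif. At least 1 match lay in 14 of the 33 promoters (42.4%), against 428 of the 9270 tested genes with a promoter (4.62%) and 704 of all 27025 genes with one (2.6%). Of the 21 listed E2F and G1/S regulators with a promoter, 38.1% held a match, and of the 20 mitotic genes with one, 5.0%. The helicase genes Mcm6, Mcm5, and Mcm7 and the polymerase alpha gene Pola1 show how the matches sit. The 170 bases before the start site are given 5′ to 3′ on the strand of the gene, with matches in capitals. For Mcm7, 1 of its 2 listed start sites is shown. In Mcm6 and Mcm5 a forward and a reverse match overlap in 1 run of capitals.
Mcm6, chr1:128359706-128359875, minus strand: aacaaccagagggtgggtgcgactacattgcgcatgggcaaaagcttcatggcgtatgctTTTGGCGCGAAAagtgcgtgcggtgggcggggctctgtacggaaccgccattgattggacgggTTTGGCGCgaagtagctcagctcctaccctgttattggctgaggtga
Mcm5, chr8:75109339-75109508, plus strand: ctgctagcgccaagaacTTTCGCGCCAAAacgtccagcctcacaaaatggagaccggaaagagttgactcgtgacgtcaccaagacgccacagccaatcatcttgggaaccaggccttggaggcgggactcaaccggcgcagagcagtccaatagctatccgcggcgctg
Mcm7, chr5:138171884-138172053, minus strand: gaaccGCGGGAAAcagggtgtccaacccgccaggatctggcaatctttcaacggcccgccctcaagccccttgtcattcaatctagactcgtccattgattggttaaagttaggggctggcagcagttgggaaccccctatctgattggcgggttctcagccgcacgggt
Pola1, chrX:93632156-93632325, minus strand: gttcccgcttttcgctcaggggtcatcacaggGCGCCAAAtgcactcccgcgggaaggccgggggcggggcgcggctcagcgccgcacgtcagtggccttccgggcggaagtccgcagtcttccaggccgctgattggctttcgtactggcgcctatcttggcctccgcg

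In other genes the match lay just after the start site. Windows of 30 bases are shown for Mcm3, Cdt1, and Lig1, which all fell in each of the comparisons below.
Mcm3, chr1:20820265-20820294, minus strand: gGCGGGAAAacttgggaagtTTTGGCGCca
Cdt1, chr8:122568035-122568064, plus strand: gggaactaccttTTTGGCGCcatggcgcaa
Lig1, chr7:13278841-13278870, plus strand: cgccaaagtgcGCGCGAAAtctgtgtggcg

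Mcm6 held 3 matches, while Mcm3, Mcm5, Mcm7, and Rfc3 held 2 each. Single matches were found for Cdc6, Cdt1, Gins3, Pola1, Pold1, Pold3, Pole2, Lig1, and Uhrf1. The genes that later fell in all 3 comparisons held a match in 6 of 11 promoters (54.5%) and the other genes in 8 of 22 (36.4%). This difference was not tested, and some of those calls were lost with a library left out. The letters CCAAT were in 57.6% of the 33 promoters against 42.7% of tested genes. The CHR letters TTTGAA or TTCGAA, which mark many mitotic genes, were in 15.2% against 16.2%, and in 80.0% of the promoters of mitotic genes. A match is a run of letters and was not tested as a binding site.

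As a group, the replication and nucleotide synthesis genes were lower in HFD than in LFD tumors, and lower again in HFD + EC359 tumors. Their summed level was 2900 ± 31.4 CPM (SD, n = 3) in LFD, 2610 ± 19.2 in HFD, and 2339 ± 15.2 in HFD + EC359 tumors. The libraries of the 3 groups did not overlap, with 2879 to 2936 CPM in LFD, 2589 to 2625 in HFD, and 2325 to 2355 in HFD + EC359. Among all tested genes taken singly, 57.1% did not overlap in HFD against LFD and 41.3% in HFD + EC359 against HFD. The share was 62.9% in HFD + EC359 against LFD, and sums of other genes were not compared. In these bulk tumors, fewer cycling cells, less RNA per cell, and a change in cell makeup cannot be told apart, and none of them was tested. The libraries also differed by group in their trend with GC content, and the summed level is not corrected for it. The steps were small for single genes, and none changed by more than 2-fold at an adjusted p below 0.01, the threshold in the study's methods. That threshold was met by 0 of the 39 genes in each comparison with edgeR and with DESeq2, and 0 exceeded 2-fold at an unadjusted p below 0.05. Of all tested genes it was met by 5.71% between HFD and LFD, 3.43% between HFD + EC359 and HFD, and 5.09% between HFD + EC359 and LFD.

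**Figure D1:**
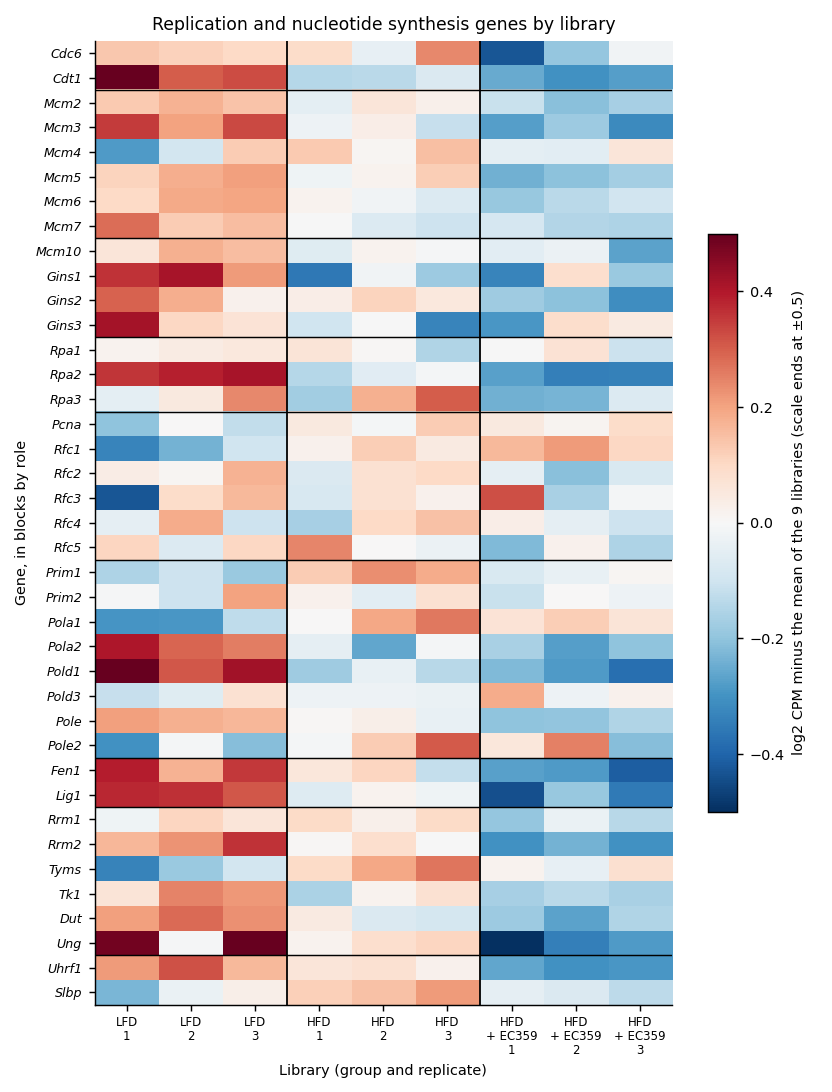
Heat map of the 39 genes (rows, in blocks by role) in the 9 libraries (columns), where color gives log2 CPM minus the gene's mean over the libraries and ends at ±0.5. Red predominates in the LFD columns and blue in the HFD + EC359 columns for the helicase, Okazaki fragment, and nucleotide genes, whereas Pcna, Rfc1, Pola1, and Tyms are lowest in LFD.

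In HFD against LFD, 24 of the 39 genes passed in edgeR's quasi-likelihood test at a threshold of 0.05 after Benjamini-Hochberg adjustment, and 17 fell while 7 rose. Over all tested genes 51.8% passed, with 25.8% falling and 26% rising, so the share that fell (43.6%) was above the background and the share that rose (17.9%) below it. The median log2 fold change of the 39 genes was -0.13, against 0.01 for all genes, and 26 values were below 0, against 49.4% of all genes. The libraries of both groups did not overlap for 22 of the 39 genes, with 17 lower and 5 higher in HFD, against 57.1% of all genes (28.6% in each direction). After removal of the GC and length trend, 15 genes fell, 1 rose, and the median was -0.09, where 22.6% of all genes fell, 20.2% rose, and the median was -0.0044.

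In HFD + EC359 against HFD, 17 genes fell and none rose. Over all tested genes 26.6% passed, with 13.9% falling and 12.7% rising. No gene was higher at an unadjusted p below 0.05 either, and DESeq2 called 0 higher and 13 lower, against 8.37% and 10.5% of all genes. The median log2 fold change was -0.16, against 0.01 for all genes, and 33 of the 39 values were below 0, against 48.8% of all genes. Groups did not overlap for 19 genes, all of them lower in HFD + EC359, against 41.3% of all genes, with 20.7% lower and 20.6% higher. After removal of the trend, 22 genes fell, none rose, and the median was -0.18, where 16% of all genes fell, 10.3% rose, and the median was -0.023. This comparison and the one before share the HFD libraries, so their values are given side by side.

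**Figure D2:**
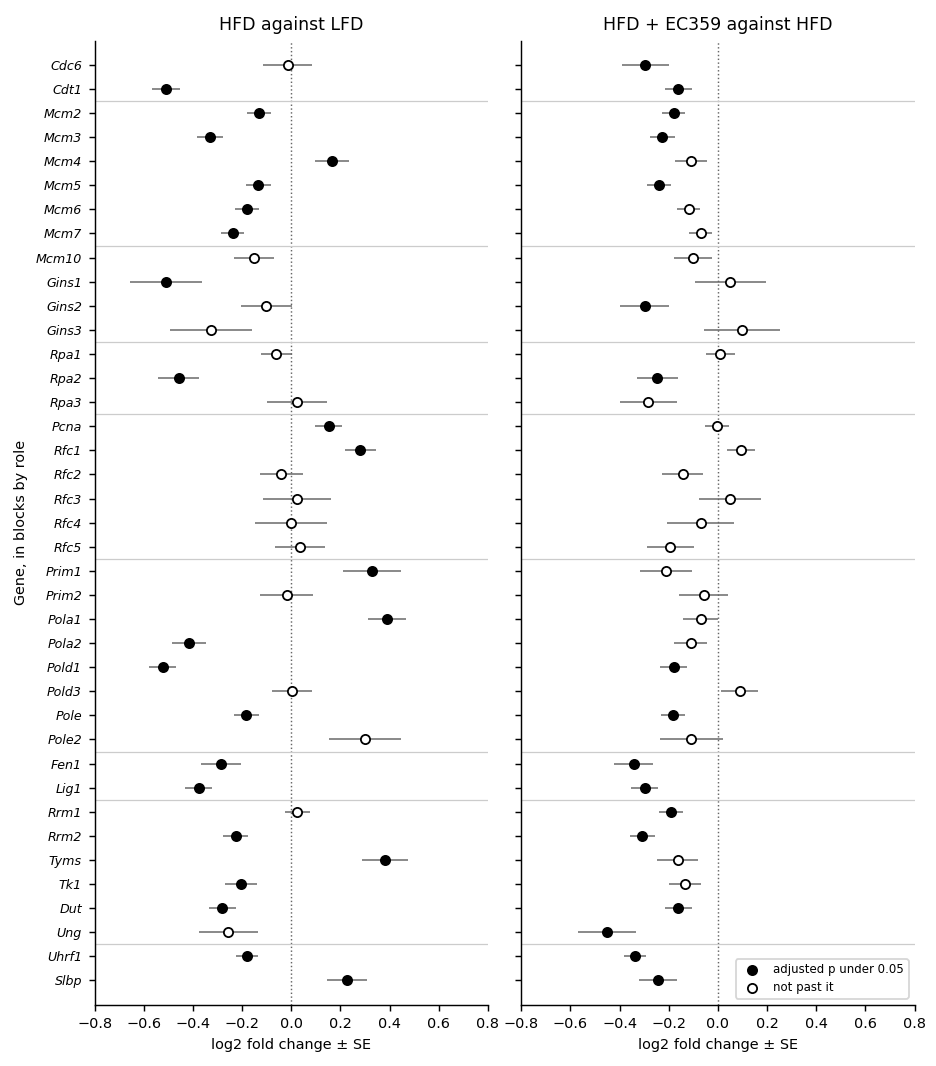
log2 fold changes with standard errors for the 39 genes in blocks by role, for HFD against LFD (left) and HFD + EC359 against HFD (right), with filled points for an adjusted p under 0.05. On the left 17 filled points lie below 0 and 7 above it, and on the right all 17 lie below 0.

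Of the licensing factors, Cdt1 fell with HFD and Cdc6 with EC359. Cdt1, which brings MCM2-7 to the origin (mm9 chr8:125091915-125097030), had 151, 127, and 129 CPM in LFD, 93.2, 93.9, and 98 in HFD, and 86.5, 83.5, and 85.1 in HFD + EC359 libraries. All 3 groups were separate. Its log2 fold change was -0.51 ± 0.06 (SE; adjusted p = 4.44e-09) in HFD against LFD and -0.16 ± 0.06 (adjusted p = 0.0323) in HFD + EC359 against HFD. With the trend removed the value in HFD against LFD was -0.26 and still passed. The step with EC359 did not pass when any 1 of the 6 HFD or HFD + EC359 libraries was left out (-0.17 to -0.14), nor with the trend removed (-0.12). Cdc6, the ATPase that works with Cdt1, had 33.8, 33.3, and 33 CPM in LFD, 32.8, 29.9, and 36.4 in HFD, and 22.9, 26.9, and 30.4 in HFD + EC359. The HFD and HFD + EC359 libraries overlapped, although the gene fell by 0.30 ± 0.10 on the log2 scale (adjusted p = 0.0209). It did not pass without HFD replicate 1 (-0.30) or 3 (-0.22), or without HFD + EC359 replicate 1 (-0.20) or 2 (-0.30).

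The MCM2-7 helicase subunits summed to 798 ± 15.9 CPM in LFD, 712 ± 3.75 in HFD, and 640 ± 2.85 in HFD + EC359, with no overlap. Mcm2, Mcm3, Mcm5, Mcm6, and Mcm7 fell in HFD and Mcm4 rose. Mcm3 had the largest decline of the subunits, from 152, 137, and 150 CPM in LFD to 117, 122, and 110 in HFD and 98.4, 105, and 95.7 in HFD + EC359. Each group was below the one before, with log2 fold changes of -0.33 ± 0.05 (adjusted p = 3.63e-06) and -0.23 ± 0.05 (adjusted p = 0.00121). Mcm7, the most abundant subunit per kilobase of exon (66.8 CPM per kilobase over all libraries), fell from 174 to 193 CPM in LFD to 148 to 159 in HFD (-0.24, adjusted p = 8.51e-05) and had 143 to 150 in HFD + EC359 (-0.07, adjusted p = 0.285). Mcm6 went from 127 to 136 CPM in LFD to 113 to 120 in HFD (-0.18, adjusted p = 0.00257) and 104 to 111 in HFD + EC359. The last step of Mcm6 had an adjusted p of 0.0639, and it passed once LFD replicate 1 (-0.12) or HFD replicate 3 (-0.14) was left out, and with the trend removed (-0.15).

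For Mcm2 and Mcm5, the decline with EC359 passed with any library left out and the one with HFD did not. Mcm2 had 129, 133, and 130 CPM in LFD, 114, 123, and 120 in HFD, and 109, 102, and 105 in HFD + EC359. The log2 fold changes of Mcm2 were -0.13 (adjusted p = 0.0232) and -0.18 (adjusted p = 0.00421), and the first did not pass without LFD replicate 2 (-0.12) or HFD replicate 1 (-0.10) and turned to 0.03 with the trend removed. Mcm5 had 123, 129, and 131 CPM in LFD, 112, 115, and 124 in HFD, and 96.4, 98.6, and 101 in HFD + EC359, where only the last group was separate from the HFD libraries. Its values were -0.13 (adjusted p = 0.0271) and -0.24 (adjusted p = 0.000325). In HFD against LFD it did not pass without LFD replicate 2 (-0.13) or 3 (-0.12), or without HFD replicate 1 (-0.10) or 2 (-0.12), nor with the trend removed (-0.08). Mcm4 stood apart, with 68.7, 78.3, and 91.3 CPM in LFD, 91.4, 84, and 92.8 in HFD, and 80.7, 80.6, and 87 in HFD + EC359. The LFD libraries spread across the range of the others, and the rise in HFD (0.16, adjusted p = 0.0468) fell short without LFD replicate 1 (0.08) or 2 (0.15), HFD replicate 1 (0.15) or 3 (0.13), or HFD + EC359 replicate 1 or 2 (0.16 each), and turned to -0.02 with the trend removed. With EC359 its value was -0.11 (adjusted p = 0.223), or -0.16 and past the threshold with the trend removed (adjusted p = 0.045).

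Among the genes that activate the helicase, Gins1 fell in HFD and Gins2 with EC359. Gins1, a GINS subunit, had 14.3, 14.8, and 12.9 CPM in LFD, 8.7, 11, and 9.81 in HFD, and 8.85, 11.8, and 9.8 in HFD + EC359. It fell in HFD by 0.51 ± 0.15 on the log2 scale (adjusted p = 0.0044), and HFD and HFD + EC359 overlapped. Gins2 had 26.6, 24.6, and 22 CPM in LFD, 22.2, 23.4, and 22.5 in HFD, and 19.2, 18.8, and 17.5 in HFD + EC359. The last group lay below the others, with -0.30 ± 0.10 against HFD (adjusted p = 0.0225), and the call was lost without HFD replicate 2 (-0.27) or HFD + EC359 replicate 3 (-0.26). Gins3, the least abundant of the 39 genes per kilobase (3.73 CPM per kilobase), and Mcm10, a helicase activator, passed in neither comparison. Gins3 had 9.34 to 11.9 CPM in LFD, 7.09 to 8.91 in HFD, and 7.28 to 9.48 in HFD + EC359, and its log2 fold change in HFD against LFD was -0.33 (adjusted p = 0.101), or -0.43 and past the threshold with the trend removed. Mcm10 had 45.2 to 49.1, 41.6 to 43.9, and 36 to 42.5 CPM, at -0.15 in HFD against LFD (adjusted p = 0.119) and -0.10 with EC359.

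Of the RPA genes, Rpa2 fell at both steps and the others passed at neither. Rpa2, the middle subunit, had 43.2, 44.1, and 44.9 CPM in LFD, 30.5, 32.4, and 33.5 in HFD, and 27.9, 26.6, and 26.7 in HFD + EC359. The 3 groups did not overlap, and the fold changes were -0.46 ± 0.08 (adjusted p = 2.71e-05) and -0.25 ± 0.08 (adjusted p = 0.0267). The second call was lost without HFD replicate 2 (-0.24) or 3 (-0.22), or without HFD + EC359 replicate 2 or 3 (-0.24 each). Rpa1, the large subunit, ranged from 73.9 to 86.3 CPM over all 9 libraries and passed in no comparison. Rpa3, the small subunit, had 17, 18.2, and 20.8 CPM in LFD, 15.6, 19.9, and 21.7 in HFD, and 14.9, 15, and 16.8 in HFD + EC359, where the HFD libraries overlapped both other groups and the HFD + EC359 libraries lay just below LFD. Its log2 fold change was 0.02 in HFD against LFD and -0.28 ± 0.12 in HFD + EC359 against HFD (adjusted p = 0.0705), which passed without HFD replicate 1 (-0.41). Rpa3 has the lowest GC content of the 39 genes (38.6%), and with the trend removed its values were -0.39 in HFD against LFD and -0.52 in HFD + EC359 against HFD, both past the threshold.

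Genes of the sliding clamp and its loader were not lower in HFD. They summed to 276 ± 14.6 CPM in LFD, 304 ± 5.26 in HFD, and 303 ± 3.56 in HFD + EC359. Pcna, which encodes the clamp and was the most abundant of the 39 genes per kilobase (96.9 CPM per kilobase), had 106, 122, and 112 CPM in LFD, 126, 121, and 133 in HFD, and 126, 123, and 130 in HFD + EC359. LFD and HFD overlapped, and the rise of 0.15 ± 0.05 (adjusted p = 0.0177) was lost without LFD replicate 1 (0.11) or 3 (0.14) or HFD replicate 3 (0.11) and turned to -0.07 with the trend removed. With EC359 its value was -0.00, against -0.14 and past the threshold once the trend was removed (adjusted p = 0.0152). Rfc1, the large subunit of the loader, rose from 63.2, 67.5, and 74.2 CPM in LFD to 80.7, 86.7, and 82 in HFD (0.28 ± 0.06, adjusted p = 0.000332), with no overlap, and had 88.9, 92.1, and 85.5 in HFD + EC359. Its value in HFD against LFD was 0.11 and no longer passed once the trend was removed. The small loader subunits Rfc2, Rfc3, Rfc4, and Rfc5 passed in neither comparison, with log2 fold changes from -0.04 to 0.04 in HFD against LFD and from -0.19 to 0.05 in HFD + EC359 against HFD. Over the 9 libraries Rfc2 had 31.6 to 41.2 CPM, Rfc3 12.9 to 21.7, Rfc4 9.58 to 12.2, and Rfc5 23.5 to 32.4, with the groups overlapping in both comparisons. Rfc5 had the lowest value with EC359 (-0.19, adjusted p = 0.143), which passed with the trend removed (-0.25).

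The polymerase genes split by subunit. Pold1, the catalytic subunit of polymerase delta (mm9 chr7:51788114-51804185), had 171, 150, and 162 CPM in LFD, 107, 118, and 110 in HFD, and 104, 99.6, and 93.3 in HFD + EC359. All 3 groups were separate, and the decline in HFD of 0.52 ± 0.05 on the log2 scale (adjusted p = 9.28e-10) was the largest of the 39 genes as normalized. Pold1 also has the highest GC content of the 39 genes (60.6%). With the trend removed its value in HFD was -0.26, still past the threshold, and Gins1 had the largest decline (-0.65). For Pold1 the step with EC359 was -0.18 ± 0.05 (adjusted p = 0.0116), and it was lost without HFD replicate 2 or HFD + EC359 replicate 3 (-0.14 each) and with the trend removed (-0.08). Pold3, an accessory subunit of the same polymerase, ranged from 41.3 to 50.9 CPM, with overlap, and had log2 fold changes of 0.00 ± 0.08 and 0.09 ± 0.08 in the same comparisons. Pole, the catalytic subunit of polymerase epsilon, had 109, 107, and 106 CPM in LFD, 94.8, 96.5, and 92.1 in HFD, and 82.2, 82.4, and 85.2 in HFD + EC359. Each group lay below the one before, at -0.18 (adjusted p = 0.00316) and -0.18 (adjusted p = 0.00547). Pole2, its second subunit, had 10.6 to 13 CPM in LFD, 13 to 16.2 in HFD, and 11.3 to 15.6 in HFD + EC359, and passed in neither comparison (0.30, adjusted p = 0.0838, and -0.11).

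In the polymerase alpha and primase complex, Pola2 fell and Pola1 and Prim1 rose in HFD. Pola2, the regulatory subunit, went from 87.8, 81.3, and 79.3 CPM in LFD to 64.3, 55.5, and 66 in HFD (-0.42 ± 0.07, adjusted p = 4.81e-06). Pola1, the catalytic subunit, went from 42.6, 42.7, and 47.8 CPM in LFD to 52.2, 59.7, and 62.6 in HFD (0.39 ± 0.08, adjusted p = 9.84e-05). Neither overlapped between these groups. Their GC contents are 54.1% and 41.5%, and with the trend removed Pola2 kept -0.29 while Pola1 had 0.04 and did not pass. Prim1, the small primase subunit, rose from 13.9, 14.4, and 13.6 CPM to 16.9, 18.2, and 17.6 (0.33 ± 0.12, adjusted p = 0.0202), with the call lost without LFD replicate 3 (0.31), without HFD replicate 2 (0.30), and with the trend removed (0.10). Prim2, the large primase subunit, had 19.4 to 24.1 CPM over all libraries and -0.02 in HFD against LFD. None of these 4 genes passed in HFD + EC359 against HFD, with -0.21 to -0.06, except that Prim1 was called lower with the trend removed (-0.34, adjusted p = 0.0135).

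Fen1 and Lig1, which trim and seal Okazaki fragments, fell in both comparisons. Lig1 (mm9 chr7:13862662-13896776) had 137, 136, and 131 CPM in LFD, 101, 107, and 104 in HFD, and 77.9, 92.5, and 82.6 in HFD + EC359. Fen1 had 58.5, 50.2, and 56.9 CPM, then 46.3, 47.9, and 41, then 36.9, 36.6, and 33.5. For both genes every library of a group lay below every library of the group before. Lig1 changed by -0.38 ± 0.05 (adjusted p = 7.75e-07) and -0.30 ± 0.05 (adjusted p = 8.5e-05). Fen1 changed by -0.29 ± 0.08 (adjusted p = 0.00382) and -0.34 ± 0.08 (adjusted p = 0.00154). Lig1 passed in both comparisons with the trend removed (-0.26 and -0.28), and Fen1 in the second (-0.36), with -0.16 in the first.

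**Figure D3:**
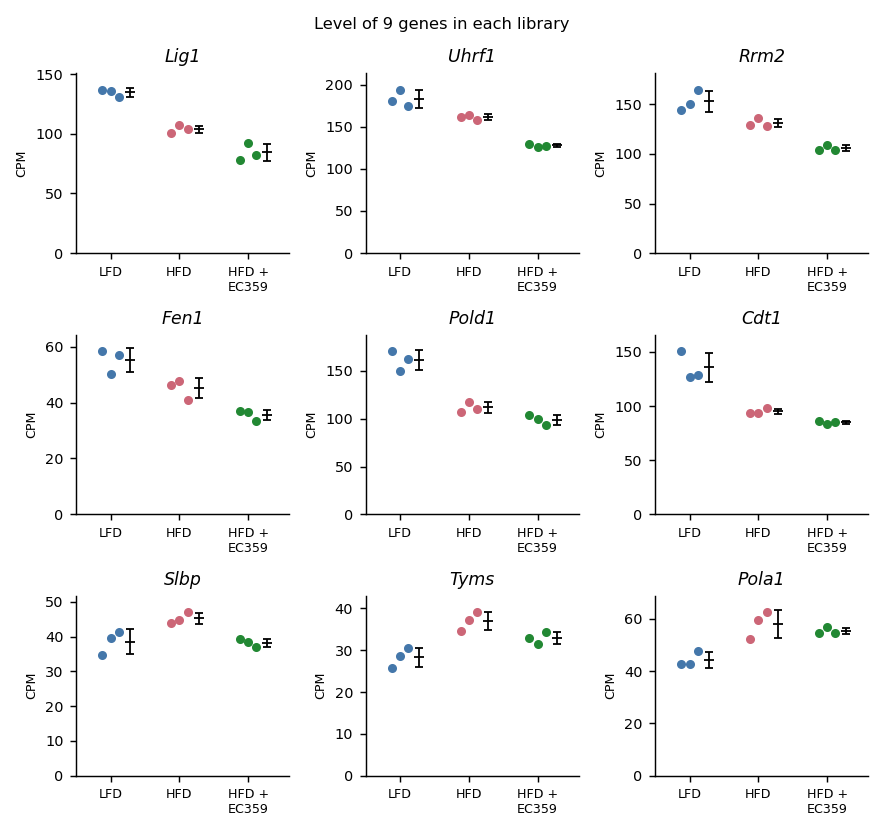
CPM of 9 genes in each library (points) with the group mean and SD (bars), on axes that start at 0. Lig1, Uhrf1, Rrm2, Fen1, Pold1, and Cdt1 step down from LFD to HFD to HFD + EC359, Slbp is highest in HFD, and Tyms and Pola1 are lowest in LFD.

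The subunits of ribonucleotide reductase, which makes deoxynucleotides from ribonucleotides, both fell with EC359, and Rrm2 also in HFD. Rrm2, the small subunit that accumulates in S phase, had 144, 150, and 165 CPM in LFD, 129, 136, and 128 in HFD, and 104, 109, and 104 in HFD + EC359. It fell at both steps without overlap, by 0.23 ± 0.05 (adjusted p = 0.000353) and 0.31 ± 0.05 (adjusted p = 1.33e-05) on the log2 scale. Rrm1, the large subunit, had 117, 128, and 124 CPM in LFD, 127, 121, and 127 in HFD, and 104, 116, and 108 in HFD + EC359. LFD and HFD overlapped (0.02 ± 0.05), and the step with EC359 was -0.19 ± 0.05 (adjusted p = 0.00374). After the trend was removed, Rrm1 passed in HFD against LFD as well, at -0.20 (adjusted p = 0.000795).

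Of the genes of thymidylate supply, Tyms rose and Tk1 fell in HFD. Tyms, thymidylate synthase, rose from 25.8, 28.6, and 30.5 CPM in LFD to 34.7, 37.2, and 39.1 in HFD (0.38 ± 0.09, adjusted p = 0.000867), and had 32.9, 31.6, and 34.4 in HFD + EC359. The HFD libraries were the highest and did not overlap the others, while the step with EC359 (-0.16) had an adjusted p of 0.152. Tyms was the one gene that still rose in HFD with the trend removed (0.25, adjusted p = 0.0249). Tk1, the salvage kinase for thymidine, fell from 71.6, 81.3, and 79.5 CPM to 61.3, 69.3, and 72.1 (-0.20 ± 0.07, adjusted p = 0.0105), with overlap, and the call was lost without LFD replicate 2 (-0.17) or HFD replicate 1 (-0.14). Its step with EC359 (-0.13, adjusted p = 0.129) passed without HFD replicate 1 (-0.20), and with the trend removed its values were -0.03 and -0.17, of which the second passed.

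Dut and Ung keep uracil out of DNA, Dut by hydrolyzing dUTP and Ung by excising uracil. Dut had 108, 114, and 110 CPM in LFD, 96.7, 89.1, and 88.2 in HFD, and 82.6, 78, and 84.6 in HFD + EC359. The 3 groups were separate, at -0.28 ± 0.05 (adjusted p = 6.07e-05) and -0.16 ± 0.05 (adjusted p = 0.0229), and the second was lost without HFD replicate 1 (-0.12) or HFD + EC359 replicate 2 (-0.13). Ung had 25.8, 18.4, and 26.1 CPM in LFD, 18.7, 19.6, and 19.9 in HFD, and 12.6, 14.6, and 15.2 in HFD + EC359. LFD replicate 2 lay at the level of the HFD libraries, and the difference between HFD and LFD (-0.26, adjusted p = 0.0718) passed without that library (-0.42). The decline of Ung with EC359, 0.45 ± 0.12 on the log2 scale (adjusted p = 0.00452), was the largest of the 39 genes in that comparison as normalized. With the trend removed Ung had -0.43 and still passed, and Rpa3 had the largest decline (-0.52).

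Uhrf1 and Slbp both fell with EC359 and differed in HFD. Uhrf1, which guides maintenance methylation to newly copied DNA, had 180, 194, and 174 CPM in LFD, 162, 164, and 158 in HFD, and 130, 126, and 127 in HFD + EC359. The groups did not overlap, and the step with EC359 of -0.34 ± 0.05 had the smallest adjusted p of the 39 genes in that comparison (5.93e-07), after -0.18 ± 0.05 (adjusted p = 0.00146) in HFD. With the trend removed these were -0.32 and -0.07, and the second no longer passed. In that setting Rrm2 had the smallest adjusted p with EC359 (2.76e-08). Slbp, which binds the stem-loop of histone mRNAs, had 34.6, 39.6, and 41.4 CPM in LFD, 44, 44.8, and 47 in HFD, and 39.3, 38.5, and 37 in HFD + EC359. HFD was separate from both other groups. Slbp rose in HFD by 0.23 ± 0.08 (adjusted p = 0.0221) and fell with EC359 by 0.24 ± 0.08 (adjusted p = 0.017). The rise was lost without LFD replicate 1 (0.16), without HFD replicate 3 (0.20), and with the trend removed (0.01), and the decline without HFD replicate 3 or HFD + EC359 replicate 3 (-0.22 each).

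HFD + EC359 against LFD sets both the diet and the treatment against neither. Here 26 genes passed, 22 lower and 4 higher, against 58.3% of all tested genes (29.1% lower and 29.2% higher), and the median was -0.30 against 0.01 for all genes. Values below 0 were seen for 30 of the 39 genes, against 49.1% of all genes. Cdt1, Mcm2, Mcm3, Mcm5, Rpa2, Pold1, Pole, Fen1, Lig1, Rrm2, Dut, and Uhrf1 fell in all 3 comparisons. The log2 fold change here is the sum of those in HFD against LFD and HFD + EC359 against HFD. It is therefore not separate evidence for a gene that fell in both. With 1 library left out, Cdt1, Rpa2, Pold1, and Dut lost the call in HFD + EC359 against HFD, and Mcm2 and Mcm5 that in HFD against LFD. The share of all tested genes with this pattern was not counted. As normalized, the largest differences were those of Ung (-0.71, adjusted p = 9.37e-06), Rpa2 (-0.70), Pold1 (-0.70), Lig1 (-0.67), and Cdt1 (-0.67). With the trend removed they were those of Rpa3 (-0.91), Rrm2 (-0.76), Gins1 (-0.72), and Rpa2 (-0.71). In that setting Lig1 had -0.54, Ung -0.46, Cdt1 -0.38, and Pold1 -0.34. Rfc1 (0.37), Pola1 (0.32), Tyms (0.22), and Pcna (0.15) were higher, while with the trend removed 28 genes fell and 1 rose (Rfc1, 0.17), against 28% and 21.4% of all genes. Under that setting Pola1 (-0.12) and Tyms (0.05) no longer passed, and Pcna was called lower (-0.21, adjusted p = 0.000268). Leaving out 1 library ended the calls of Cdc6 (-0.22 without HFD + EC359 replicate 1), Mcm10 (-0.18 without HFD + EC359 replicate 3), and Pcna (0.11 without LFD replicate 1, 0.14 without LFD replicate 3, and 0.13 without HFD + EC359 replicate 3). The call of Tyms ended when LFD replicate 1 (0.16) or 2 (0.22), HFD replicate 2 (0.22) or 3 (0.21), or HFD + EC359 replicate 1 (0.22) or 3 (0.18) was left out. Groups did not overlap for 29 genes, with 24 lower and 5 higher in HFD + EC359, against 62.9% of all genes (31.1% lower and 31.8% higher).

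The direction in HFD went with the GC content of the genes. Across the 39 genes, Pearson's r of exon GC content with the log2 fold change was -0.669 (Spearman's rho -0.664) in HFD against LFD and -0.316 (-0.307) in the comparison of HFD + EC359 with HFD, and over all 13366 genes r was -0.329 and -0.127. These points share the same libraries and depths. Of the 20 genes with at most 49.3% GC, 7 rose and 4 fell in HFD, where 42.9% of all tested genes in that range rose and 9.43% fell. Of the 19 genes with more GC, none rose and 13 fell, where 13.6% of all genes rose and 37.8% fell. In HFD + EC359 against HFD, 5 of the 20 and 12 of the 19 genes fell and none rose, against 7.53% and 18.5% of all genes that fell in those ranges. With the trend removed, r over the 39 genes was -0.01 and 0.07. The part of base composition or depth in the differences between groups was not tested beyond these values.

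**Figure D4:**
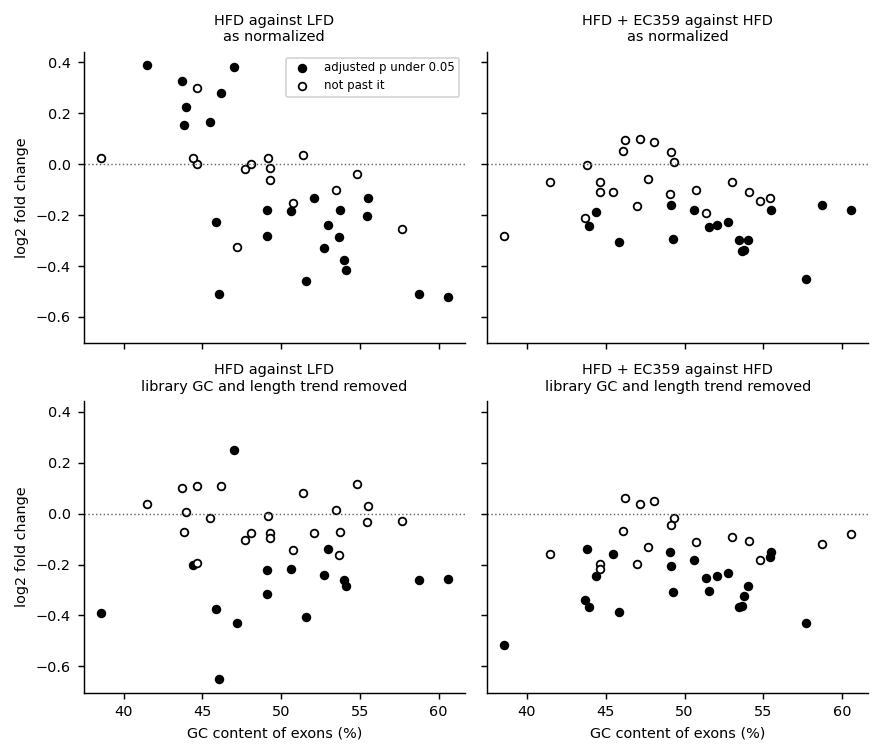
log2 fold change against exon GC content (%) for the 39 genes in HFD against LFD (left) and HFD + EC359 against HFD (right), as normalized (top) and with each library's GC and length trend removed (bottom), with filled points for an adjusted p under 0.05. The slope in the top left panel (r = -0.669) is absent below it (r = -0.01), where 15 genes fell and 1 rose, and on the right 17 genes fell above and 22 below.

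Other genes of the same pathways, from lists by name, were counted in the same way. For each list, the shares over all genes are those given above, 26% rising and 25.8% falling in HFD and 12.7% rising and 13.9% falling with EC359, or 20.2% and 22.6%, and 10.3% and 16%, with the trend removed. Of 31 other replication factors, 7 rose and 8 fell in HFD against LFD (median 0.03), close to the shares over all genes, and 1 rose and 6 fell in HFD + EC359 against HFD (median -0.12), which became 3 and 8, and 0 and 10, with the trend removed. Orc4 (0.86) and Orc3 (0.73), of the origin recognition complex, rose in HFD, and Rnaseh2a (-0.67), a subunit of the RNase that removes ribonucleotides from DNA, fell. With the trend removed these were 0.35, 0.33, and -0.65, all past the threshold. The checkpoint adaptor Clspn and the fork protein Timeless fell with EC359 (-0.35 each). Orc4 rose by 0.31 with EC359, a call lost without HFD replicate 1 (0.25) and with the trend removed (0.14). Of 30 other nucleotide synthesis enzymes, 4 rose and 13 fell in HFD (median -0.10), and 3 rose and 7 fell with EC359 (median -0.09), which became 2 and 13, and 2 and 8, with the trend removed. Nme1, a nucleoside diphosphate kinase, fell by 0.74 in HFD, and Ctps, CTP synthase, fell by 0.31 with EC359. Prps2, which makes phosphoribosyl pyrophosphate, rose by 0.49 in HFD, and that call was lost with the trend removed (0.17). Rrm2b, a p53-induced reductase subunit, rose in HFD (0.50) and with EC359 (0.39). The first call was lost without LFD replicate 1 (0.38), without HFD replicate 2 (0.34), and with the trend removed (0.07). The second was lost without HFD replicate 1 (0.31) or 3 (0.34), without HFD + EC359 replicate 1 (0.24) or 2 (0.39), and with the trend removed (0.26). Mthfd2, a mitochondrial folate enzyme, fell with EC359 (-0.30), a call lost without HFD replicate 1 (-0.21) or HFD + EC359 replicate 2 (-0.24) or 3 (-0.29).

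Of the 29 tested E2F and G1/S regulators, 6 rose and 12 fell in HFD (median -0.07), and 1 rose and 11 fell with EC359 (median -0.12), which became 3 and 11, and 0 and 12, with the trend removed. In HFD the cyclin-dependent kinase inhibitor Cdkn1a fell (-0.57 ± 0.08) and the cyclin Ccnd2 rose (0.66). Another such inhibitor, Cdkn1c, passed the test as higher, but its mean in LFD (0.509 CPM) was no more than about 3 counts give, against 1.92 CPM in HFD, so no fold is given. With EC359 the repressor E2f8 (-0.47) and the cyclins Ccne1 (-0.41) and Ccna2 (-0.30) fell, and the call of Ccne1 was lost without HFD replicate 2 (-0.36) or 3 (-0.40), or without HFD + EC359 replicate 1 (-0.41), 2 (-0.42), or 3 (-0.41). Of 25 mitotic genes, 12 rose and 4 fell in HFD (median 0.15), and none rose and 19 fell with EC359 (median -0.31), where 26% and 25.8% of all genes, and 12.7% and 13.9%, rose and fell. These counts became 8 and 6, and 0 and 23, with the trend removed, against the shares over all genes of 20.2% and 22.6%, and 10.3% and 16%. Nusap1 (0.75), the spindle kinase Ttk (0.70), and the checkpoint kinase Bub1 (0.59) rose most in HFD as normalized. With the trend removed these were 0.50, 0.43, and 0.22, all past the threshold. The ubiquitin-conjugating enzyme Ube2c (-0.48), the kinase Aurka (-0.47), and Bub1b (-0.43) fell most with EC359. The difference between these lists and the 39 genes was not tested.

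**Figure D5:**
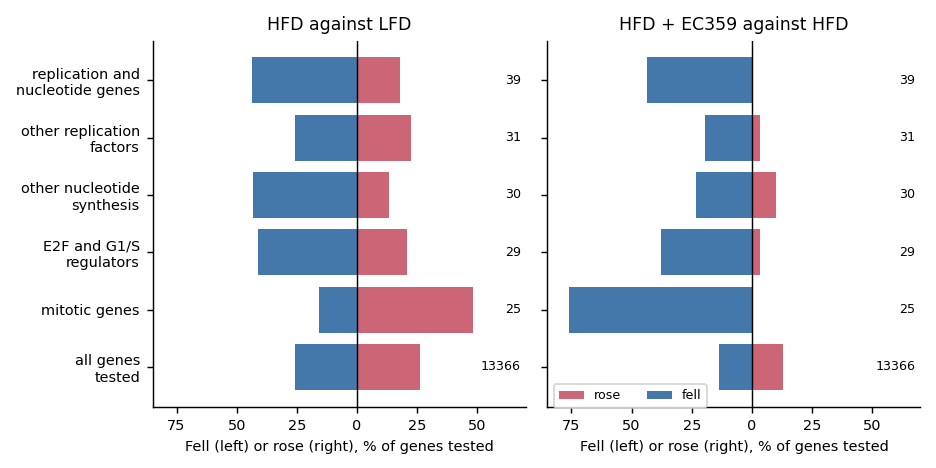
Share of tested genes that rose (right, red) or fell (left, blue) at an adjusted p under 0.05 in each list, with the number tested at the right edge of each panel. In HFD against LFD 17 of 39 replication and nucleotide genes fell and 12 of 25 mitotic genes rose, and in HFD + EC359 against HFD 17 of 39 and 19 of 25 fell.

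Markers of the cells in the tumors also moved between the groups. Krt8 and Krt18, keratins of simple epithelium, were abundant, with mean levels of 599 and 486 CPM in LFD, 408 and 293 in HFD, and 443 and 304 in HFD + EC359, while Epcam had 7.39, 1.37, and 5.06 CPM and Cldn7 had at most 3 counts in every library. The 8 simple epithelial markers summed to 1122 to 1142 CPM in LFD, 707 to 715 in HFD, and 766 to 796 in HFD + EC359, and 5 of the 5 tested fell in HFD while 4 rose with EC359. Fibroblast markers summed to 7815 to 9273, 13565 to 14317, and 4015 to 4120 CPM, with 8 of 8 rising in HFD and 5 falling and 1 rising with EC359. Col1a1, Col1a2, and Col3a1 made up most of this sum, with means of 4212, 1915, and 1531 CPM in LFD. In HFD + EC359 against LFD, 3 of the 8 rose and 4 fell. Pdgfra, for one, had a mean of 476 CPM against 323 in LFD, and Col1a1 1613 against 4212. Endothelial markers summed to 238 to 243, 411 to 442, and 331 to 347 CPM (7 of 7 rose, then 5 fell). Macrophage markers summed to 1596 to 1626, 1440 to 1461, and 1770 to 1792 CPM (3 rose and 2 fell, then 6 of 7 rose). Neutrophil markers summed to 104 to 126, 139 to 151, and 169 to 177 CPM, and epidermal markers to 1122 to 1290, 173 to 187, and 535 to 547 CPM. Skeletal muscle markers summed to 88.4 to 95.2, 109.5 to 121, and 64.9 to 69.4 CPM, and adipocyte markers to 8.11 to 10, 21.4 to 25.3, and 22.3 to 26 CPM. Fabp4 made up most of the adipocyte sum, with means of 6.21, 20, and 19.4 CPM, and 1 of the 3 tested adipocyte markers rose in HFD. Adipoq (0.36, 0.52, and 0.42 CPM) and Lep (0.26, 0.17, and 0.49 CPM) were near the level of 3 counts. T and NK cell markers (10.2 to 14.3, 8.51 to 10.4, and 13.5 to 16.3 CPM, with Ncr1 at no more than 3 counts) and B cell markers (1.1 to 1.76, 5.76 to 6.81, and 1.1 to 2.6 CPM, with Ms4a1 likewise) were low throughout. The part of these changes in cell makeup in the levels of the replication genes was not tested.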

How the data were processed

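RNA of tumors was sequenced as 9 stranded, paired-end mRNA libraries. The authors deposited expected counts per gene, unnormalized, from featureCounts on mm9 (per the file headers), in which a read pair that fell on several genes or alignments added a fraction to each. The submitters' processing notes name HISAT2 2.1.0, whereas the study's methods name TopHat2 and HTSeq. Values were rounded to whole numbers (1.19% to 3.55% of genes held a fraction). Genes were filtered with filterByExpr in edgeR 4.0.16 (R 4.3.3) and tested over all 9 libraries with the quasi-likelihood test, TMM factors, and Benjamini-Hochberg adjustment over 13366 genes, with group as the only term. The spread between libraries beyond counting error, which edgeR calls the biological coefficient of variation, was 3.63%. Whether it holds any spread between mice is not known, since the labels did not say which mouse each library came from. The test was checked on simulated counts with independent libraries and no GC trend, so the check does not cover such a trend. The limit of 3 counts covers counting error only. Members and lists were chosen with earlier results of these data known. Named genes were all 39 members, and from each other pathway list up to 3 with the largest change past an adjusted p of 0.05 per comparison. Krt8, Krt18, Epcam, and the named fibroblast and adipocyte markers were named after their values were seen. GC content and length were taken from the mm9 genome and the exons of the count files. Alternatives were DESeq2 1.42.0, RLE factors, library totals, filters of at least 1 count and of 10 in every library, the 6 libraries of a comparison, a replicate block, thinned counts, a GC and length correction, an adjusted p of 0.01, and each library left out.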

Additional observations from a re-analysis of the deposited data

How the results depend on the processing

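Of the calls at an adjusted p below 0.05, 13 of 24 in HFD against LFD, 10 of 17 in HFD + EC359 against HFD, and 20 of 26 in HFD + EC359 against LFD were kept under each of the 18 other fits per gene. Depth limits the low genes most, since a library held as few as 51 counts of a gene. With the replicate block 24, 18, and 26 genes passed, where 6944, 3550, and 7773 of all 13366 tested genes did. Same-numbered libraries had correlations of -0.03 to 0.02, and not every library correlated best with its own number. No pairing by number was seen, but values this near 0 cannot show that it is absent. The 7 genes higher in HFD than LFD became 1 with the trend removed, 3 with DESeq2, and 3 at an adjusted p below 0.01, and the 4 higher in HFD + EC359 than LFD became 1, 2, and 2. At 0.01 the 17 lower in HFD + EC359 than HFD became 10. With each library left out, these counts were 4 to 7, 2 to 4, and 12 to 18. Of all 13366 tested genes, 2694 with the trend removed and 2903 with DESeq2 were higher in HFD than LFD. In HFD + EC359 against LFD these were 2863 and 3357. With each library left out, the counts over all genes were 3046 to 3422, 3550 to 3857, and 1428 to 2200. No count over all genes is given at 0.01. DESeq2 ended the calls of Mcm2, Mcm4, Mcm5, Pcna, Prim1, and Slbp in HFD against LFD and of Cdt1, Gins2, Rpa2, and Dut in HFD + EC359 against HFD. With the trend removed, values turned in HFD against LFD for Mcm2 (0.030), Mcm4 (-0.017), Gins2 (0.015), Rpa3 (-0.39), Pcna (-0.073), Rfc2 (0.12), Rfc3 (-0.0079), Pold3 (-0.076), Rrm1 (-0.20), Ccne1 (0.011), and Clspn (-0.029). In HFD + EC359 against HFD they turned for Gins1 (-0.067), Rpa1 (-0.018), and Rfc3 (-0.045), and in HFD + EC359 against LFD for Mcm4 (-0.18), Pcna (-0.21), Rfc3 (-0.053), Prim1 (-0.24), Pola1 (-0.12), Pold3 (-0.026), Pole2 (-0.11), and Bub1 (-0.047). Library totals alone turned Cdc6 (0.028), Rfc2 (0.0023), Rfc4 (0.042), and Prim2 (0.024) in HFD against LFD, Pcna (0.029) in HFD + EC359 against HFD, and Rpa1 (0.025), Rfc4 (0.0039), Slbp (0.057), and Ccna2 (0.041) in HFD + EC359 against LFD. Thinned counts turned Rfc2 (0.044), Rfc3 (-0.081), Rfc4 (0.026), Rfc5 (-0.063), and Pold3 (-0.016) in HFD against LFD and Pcna (0.0041) in HFD + EC359 against HFD. Values near 0 turned for Rfc4 in HFD against LFD with at least 1 count (0.0061), 10 counts (0.0022), and the replicate block (0.0044), for Pold3 with RLE factors (-0.0017) and DESeq2 (-0.0015), and for Pcna in HFD + EC359 against HFD with 10 counts (0.00016). Leaving out 1 library gave ranges across 0 in HFD against LFD for Cdc6 (-0.092 to 0.052), Rpa3 (-0.080 to 0.15), Rfc2 (-0.077 to 0.013), Rfc3 (-0.12 to 0.12), Rfc4 (-0.061 to 0.10), Rfc5 (-0.057 to 0.081), Prim2 (-0.094 to 0.076), Pold3 (-0.033 to 0.059), and Rrm1 (-0.0075 to 0.056). The same held in HFD + EC359 against HFD for Gins1 (-0.070 to 0.14), Rpa1 (-0.051 to 0.059), Pcna (-0.033 to 0.028), Rfc3 (-0.090 to 0.15), and Pole2 (-0.23 to 0.014), and in HFD + EC359 against LFD for Mcm4 (-0.028 to 0.16), Rfc3 (-0.070 to 0.17), Rfc4 (-0.13 to 0.031), Prim2 (-0.15 to 0.019), Slbp (-0.082 to 0.035), and Ccna2 (-0.082 to 0.036). The cause was not tested.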
